A study of Mus musculus with 8 samples.

Results

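Chromatin accessibility was examined at 9 genes of the class 6 semaphorin and plexin families, namely the ligand genes Sema6a, Sema6b, Sema6c and Sema6d, the A plexin genes Plxna1, Plxna2 and Plxna4, and the B plexin genes Plxnb1 and Plxnb2. Their members were all peaks overlapping a gene body or the 10 kb on either side of it, in mm10 coordinates and GENCODE annotation. After peaks of the 3 genotype lists lying within 300 bp of each other were joined, the 9 genes held 219 of 190582 merged regions. By list, they held 192 of 152984 wild-type (WT) peaks, 130 of 106974 heterozygous (het) peaks and 203 of 174407 mutant peaks.

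The study asked how loss of Chd7, a nucleosome remodelling enzyme, changes open chromatin in granule neuron progenitors (GNPs), and it used ATAC-seq, in which Tn5 transposase cuts accessible DNA. The cells came from cerebella at postnatal day 7 (P7) of strain C56Bl6/J, as the labels spell it. The WT group had 3 libraries of Chd7 f/f cells, the het group 2 libraries of Atoh1-Cre::Chd7 f/+ cells and the mutant group 3 libraries of Atoh1-Cre::Chd7 f/f cells, with genotypes written out from the study's methods and legends. The floxed Chd7 allele was therefore shared by all 3 groups, and Cre by the het and mutant groups alone. Atoh1-Cre acts in cells of the upper rhombic lip, including granule cells and not Purkinje cells, so the comparison concerns loss within that lineage. The study calls the WT and mutant replicates technical.

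Each list was called on the pooled libraries of its genotype, so values below carry no error between libraries, and genotypes were compared without a test. The words rise and fall are used below for the ratio of the 2 pooled lists alone. The peak caller kept 50394313 WT tags, 30923002 het tags and 51030229 mutant tags. Tag size was 76 bp for mutant and 107 bp for the others, and het was called with longer extension, a shift and another alignment. Het was therefore compared by the presence of a peak and by rank within its list alone. That rank is the percentage of a list's peaks at or below the same -log10 q. WT and mutant were compared by height, although their tag size differed together with genotype. The effect of tag size on heights and on unpaired peaks was not tested. Ranks move with a list's length and calling, so they are given as values and no order of genotypes is read from them. Het tag counts and fold enrichments are printed below without scaling and are not comparable with those of WT or mutant. The Chd7 locus itself held 32 WT, 23 het and 40 mutant peaks, with its peak at the transcription start site (TSS) at rank 89.4%, 81.8% and 86.3%, a measurement that does not test the deletion. Of 10 GNP marker genes, 9 had a TSS peak in WT, 9 in het and 10 in mutant. Zic2, the exception in WT and het, had a mutant TSS peak at rank 6.12%. Open promoters did not separate cell types in these lists, since TSS peaks were also present in WT at 4 of 5 Purkinje cell markers, 3 of 4 GABAergic interneuron markers, 5 of 6 astrocyte and Bergmann glia markers, 2 of 4 microglia markers and 2 of 3 endothelial markers. The same held for 3 of the 4 oligodendrocyte lineage markers Olig2, Sox10, Pdgfra and Mbp. Within those groups, Pcp2, Slc32a1, Gfap, Sox10, Cx3cr1, Aif1 and Pecam1 had no TSS peak in any list. How far other cell types or unrecombined cells contributed to the signal was not tested.

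Class 6 semaphorins are transmembrane guidance proteins, and plexins are single-pass receptors whose cytoplasmic domain acts on small GTPases of the Ras and Rap families. Plexin-A2 and plexin-A4 are receptors of Sema6A, plexin-A1 is a receptor of Sema6D, and B plexins bind class 4 semaphorins. In the developing cerebellum, Sema6A and plexin-A2 act in the passage of granule cells from the external to the internal granule layer, and plexin-B2 is needed for normal proliferation and migration of granule cell precursors.

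The regions that carried the differences described below are printed here in mm10 (GRCm38), read from the RefSeq genome of that build, whole or, above 300 bp, as a window around the summit. They are the Plxna2 intronic region with the largest rise in mutant, the Plxna4 region with the largest rise, both strong Plxna4 regions with a mutant but no WT peak, and the Sema6d region with the largest fall. Promoters of Plxna2 and Plxnb2, from 250 bases before to 50 after a RefSeq start, are shown for contrast. They are open sites of the gene with the largest single rise in height and of a B plexin gene. Capitals mark any match on either strand to 6 motifs. The E-boxes, sites of bHLH factors such as Atoh1 and Neurod1, were CAGCTG, the variant spelled CAGATG, and the variant spelled CATATG. The others were TTGGCA for the core of an NFI site, GGGCGG for the GC box, and TGANTCA for AP-1. No 2 of these matches overlapped in the sequences shown.
Plxna2 intronic region, chr1:194630688-194630987, plus strand: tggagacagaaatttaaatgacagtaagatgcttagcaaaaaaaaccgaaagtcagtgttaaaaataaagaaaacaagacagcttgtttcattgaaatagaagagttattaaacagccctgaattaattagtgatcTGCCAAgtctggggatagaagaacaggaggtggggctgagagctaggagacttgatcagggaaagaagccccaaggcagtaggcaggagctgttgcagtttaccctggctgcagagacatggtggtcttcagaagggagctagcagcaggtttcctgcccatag
Plxna4 intronic region, higher in mutant, chr6:32259490-32259738, plus strand: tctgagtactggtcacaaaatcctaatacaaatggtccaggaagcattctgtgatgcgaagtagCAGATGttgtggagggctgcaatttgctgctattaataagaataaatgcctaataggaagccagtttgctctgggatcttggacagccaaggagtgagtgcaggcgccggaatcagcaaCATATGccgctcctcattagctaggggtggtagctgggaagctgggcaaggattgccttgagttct
Plxna4 intronic region, mutant and het, chr6:32271525-32271732, plus strand: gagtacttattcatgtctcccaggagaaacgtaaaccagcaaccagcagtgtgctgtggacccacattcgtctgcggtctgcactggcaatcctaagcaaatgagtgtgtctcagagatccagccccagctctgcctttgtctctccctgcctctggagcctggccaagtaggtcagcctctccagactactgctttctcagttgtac
Plxna4 upstream region, mutant alone, chr6:32591462-32591635, plus strand: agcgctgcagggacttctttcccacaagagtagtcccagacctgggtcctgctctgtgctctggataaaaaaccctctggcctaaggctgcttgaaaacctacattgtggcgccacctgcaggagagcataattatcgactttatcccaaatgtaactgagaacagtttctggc
Sema6d intronic region, chr2:124120431-124120730, plus strand: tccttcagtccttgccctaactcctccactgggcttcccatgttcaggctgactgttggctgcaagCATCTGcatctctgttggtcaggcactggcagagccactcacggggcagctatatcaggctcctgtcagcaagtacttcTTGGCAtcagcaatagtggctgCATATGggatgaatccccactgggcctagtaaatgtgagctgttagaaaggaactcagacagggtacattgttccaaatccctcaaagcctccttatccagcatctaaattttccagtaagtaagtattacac
Plxna2 promoter, chr1:194619579-194619878, plus strand: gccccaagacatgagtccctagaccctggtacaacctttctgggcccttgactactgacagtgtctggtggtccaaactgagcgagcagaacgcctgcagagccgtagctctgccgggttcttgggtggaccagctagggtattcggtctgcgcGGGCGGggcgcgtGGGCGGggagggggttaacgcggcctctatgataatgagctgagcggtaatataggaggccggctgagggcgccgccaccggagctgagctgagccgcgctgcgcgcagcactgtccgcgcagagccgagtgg
Plxnb2 promoter, chr15:89180739-89181038, minus strand: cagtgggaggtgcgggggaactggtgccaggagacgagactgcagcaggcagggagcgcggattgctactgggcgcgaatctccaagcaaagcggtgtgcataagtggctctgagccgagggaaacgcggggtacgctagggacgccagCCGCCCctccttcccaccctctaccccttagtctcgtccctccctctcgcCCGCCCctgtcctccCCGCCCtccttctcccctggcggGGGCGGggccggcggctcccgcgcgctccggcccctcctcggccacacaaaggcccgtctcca
The Plxna2 intronic region held 1 NFI core, a motif present in 27.4% of 300 bp windows centred on all WT summits. The Sema6d region held 1 NFI core, 1 match to CAGATG and 1 match to the E-box CATATG. The Plxna4 region that was higher in mutant held the same E-box pair without the NFI core. Among all WT windows, CAGATG was present in 34.8% and the E-box CATATG in 7.85%. None of the 6 motifs was present in the other Plxna4 sequences, which are shorter than 300 bp. The Plxna2 promoter held 2 GC boxes and the Plxnb2 promoter 4, where 35.7% of 32851 RefSeq promoters held at least 1. The RefSeq promoter table had no entry for Sema6a, Plxna1 or Plxna4. A match describes letters in the window and not binding.

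Most member peaks were intronic. Of the 192 WT peaks, 147 had their summit in an intron (76.6%, Wilson 95% interval 70.1 to 82.0%, which like all such intervals below covers counting error alone), where 40.2% of all WT peaks did. A share of 13.0% lay within 1 kb of a TSS, against 14.4% of all WT peaks, and 5.21% were intergenic, against 41.0%, as a rule built on gene bodies requires. The TSS class here counts any coding or long non-coding start, including starts of neighbouring genes, which took 1 region each at Sema6b, Sema6d, Plxna4 and Plxnb1 and 2 at Plxnb2. The CAGCTG E-box was present in 74 of 192 WT windows of the 9 genes (38.5%, 31.9 to 45.6%), against 28.6% of all WT windows. Among windows inside coding genes alone, the shares were 39.1% for the 9 genes and 29.6% overall. The E-box CAGATG was present in 41.1% against 34.8%, the E-box CATATG in 7.81% against 7.85%, the NFI core in 32.8% against 27.4%, the GC box in 15.1% against 13.9% and AP-1 in 6.77% against 8.98%. The median GC content of the windows was 50.7% for the 9 genes and 50% overall. These shares are descriptions, and neighbouring windows of a gene are not independent.

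Without a threshold on strength, loss and gain of whole peaks at the 9 genes were close to those across the genome. Of the 192 WT peaks, 41 had no overlapping mutant peak (21.4%, 16.1 to 27.7%), where the share among all WT peaks was 22.8%. Of the 203 mutant peaks, 51 had no overlapping WT peak (25.1%, 19.7 to 31.5%), against 30.7% of all mutant peaks. That order turned when every list was cut to the 106974 strongest peaks, where the values were 21.8% and 18.6%. It also turned when both lists were held to -log10 q of 5 or more. The values were then 31.8% (24.8 to 39.6%) and 24.0%, the latter just below that interval. The WT peaks lacking a mutant partner were weak, with a median pileup of 12 tags against 20 for those with one. Their median rank was 26.9%, against 55.9% for those with a partner. Among WT peaks of -log10 q 10 or more, 0 of 66 lacked a mutant peak within 300 bp, which allows a share of up to 4.55%, and 0.417% of all such WT peaks did. Among mutant peaks of that strength, 2 of 79 lacked a WT peak within 300 bp (2.53%), against 1.12% of all, and both lay at Plxna4.

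All 3 lists had a peak in 108 of the 219 merged regions (49.3%, 42.8 to 55.9%), where 45.7% of all merged regions did. A further 30 were in WT and mutant without het, 39 in mutant alone and 26 in WT alone. The shares in 1 list were 17.8% for mutant (20.1% of all regions) and 11.9% for WT (13.3% of all regions). There were 5 regions in het and mutant without WT, and 7 in WT and het without mutant. No share over all merged regions was available for these patterns, or for WT and mutant without het. Whether these counts differ from the rates across the genome was therefore not tested. Of the WT peaks, 70 of 192 had no het peak (36.5%, 30.0 to 43.5%), against 36.9% of all WT peaks. The het list was the shallowest and the shortest, so missing het peaks cannot be told apart from its lower depth.

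**Figure D1:**
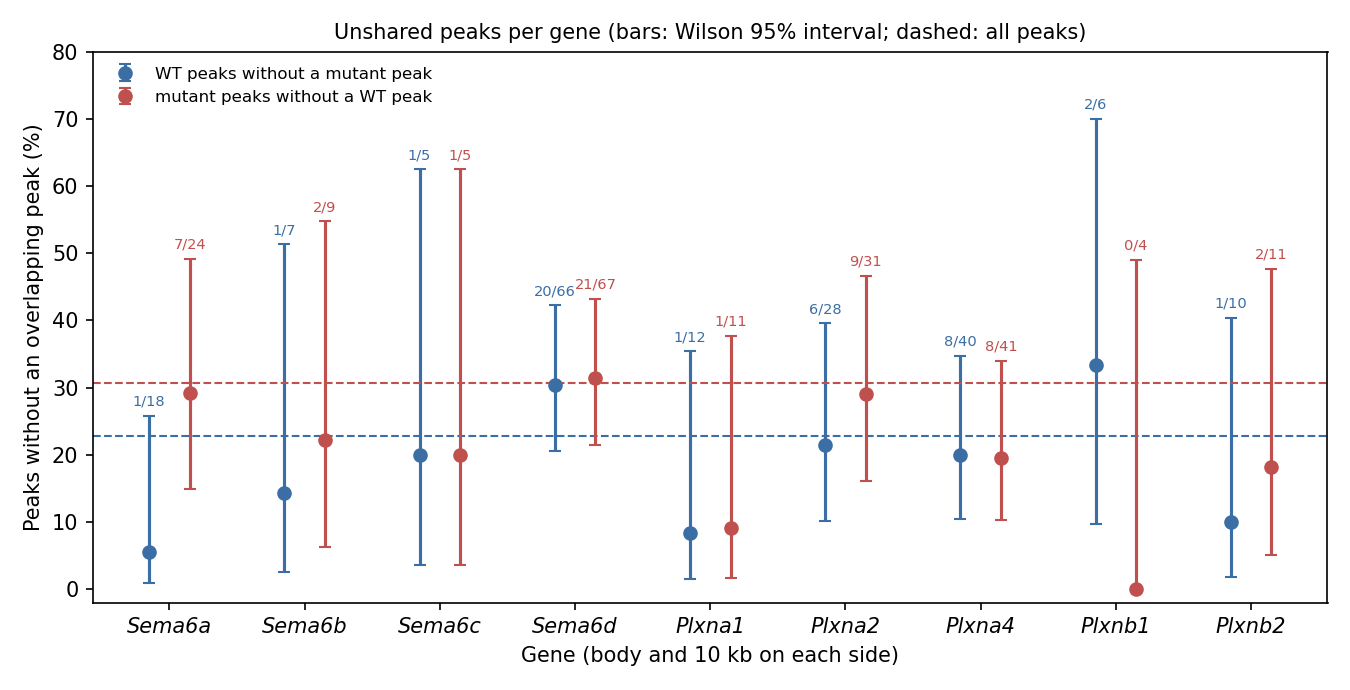
Share of peaks (%, y axis) with no overlapping peak in the other list for each gene (x axis), with WT peaks in blue and mutant peaks in red, Wilson 95% intervals as bars and counts above them. Dashed lines stand at 22.8% for WT and 30.7% for mutant, the values over the whole lists, and lie within the intervals of every gene.

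Height, the summit pileup per 1000000 tags of the strongest peak in a region, could be compared in 138 regions with both a WT and a mutant peak. It was higher in mutant in 87 of them (63.0%, 54.7 to 70.6%), where 57.2% of all 111314 shared regions were higher. The median log2 ratio of mutant to WT was 0.11 (0.07 to 0.17, an order-statistic interval over regions), against 0.07 over all shared regions. Heights at least 1.5 times higher in mutant were found in 11 of the 138 regions (7.97%), against 7.48% of all. Heights at least 1.5 times lower were found in 1 region (0.725%, 0.128 to 3.99%), against 3.61% of all. The 11 were unevenly spread, with 5 at Plxna2, 3 at Plxna4, 2 at Sema6d and 1 at Sema6a. The interval of a single ratio, computed from the 2 pileups and covering counting error alone, lay above 1 in 2 regions (1.45%, against 0.806% of all) and below 1 in 0 of the 138 (0.515% of all), which allows a share of up to 2.17%.

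By height, 8 of the 11 regions past 1.5 times lay at the A plexins, receptor genes. By fold enrichment over local background, which the peak caller gives beside the pileup, 6 regions were past 1.5 times higher, 3 at A plexins and 3 at semaphorins, and 5.66% of all shared regions were. By height, the A plexins had 45 of 60 regions higher in mutant (75%, 62.8 to 84.2%) with a median log2 ratio of 0.21. The semaphorins had 36 of 66 (54.5%, 42.6 to 66.0%) with a median of 0.04. The B plexins had 6 of 12 (50%, 25.4 to 74.6%) with a median of 0.04. At least 1.5 times higher were 8 A plexin, 3 semaphorin and 0 of 12 B plexin regions, the last of which allows a share of up to 25%. By fold enrichment, any rise was found in 47 of 60 A plexin, 35 of 66 semaphorin and 9 of 12 B plexin regions. The median log2 ratios of fold enrichment were 0.13, 0.02 and 0.10, so A and B plexins lay closer together than by height. The difference between families was not tested. At marker genes of other cell types, regions at least 1.5 times higher in mutant numbered 6 of 48 (12.5%, 5.86 to 24.7%) for Purkinje cells and 5 of 31 (16.1%, 7.09 to 32.6%) for the oligodendrocyte lineage markers Olig2, Sox10, Pdgfra and Mbp, against 7.48% of all. They numbered 3 of 79 (3.80%) at GNP markers, 2 of 17 at endothelial markers, 2 of 40 at astrocyte and Bergmann glia markers, 1 of 22 at GABAergic interneuron markers and 0 of 22 at microglia markers. Foxp2 alone held 5 of the 6 Purkinje cell regions and 35 of the 48 shared ones. Mbp held 3 of the 5 oligodendrocyte lineage regions and 16 of the 31 shared ones. The part of other cell types in the result was not tested. In the accounts of single genes below, tag counts are unscaled summit pileups, and het counts are not comparable with the others. Parentheses after tag counts give the log2 ratio of mutant to WT height with its interval.

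**Figure D2:**
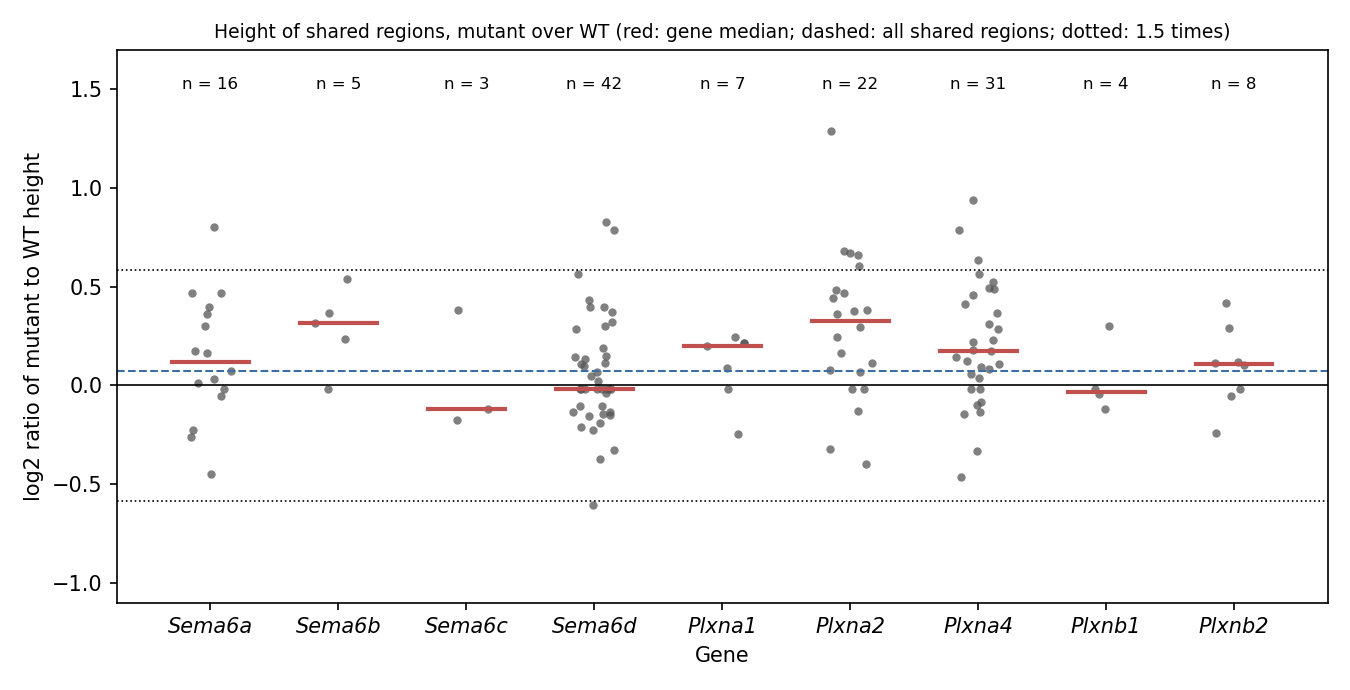
Log2 ratio of mutant to WT height (y axis) for each shared region (points) by gene (x axis), with gene medians as red bars, the median over all shared regions as a dashed line and a ratio of 1.5 in either direction as dotted lines. The median of Plxna2 sits highest at 0.33, and 5 of its 22 points lie above the upper dotted line.

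Among the ligands, Sema6a (ENSMUSG00000019647.16, chromosome 18, 47235598 to 47368870, minus strand) was covered by 18 WT, 15 het and 24 mutant peaks. Of its 18 WT peaks 1 had no mutant peak (5.56%, 0.988 to 25.8%, against 22.8% of all WT peaks), and of its 24 mutant peaks 7 had no WT peak (29.2%, 14.9 to 49.2%, against 30.7% of all mutant peaks). The unpaired mutant regions were weak, at 9 to 14 tags. One of them, at 47333176 to 47333763, lay at an internal start 35.2 kb into the gene, with 14 tags in het and 14 in mutant and no WT peak.
The main Sema6a TSS region had 79 tags in WT, 119 in het and 77 in mutant, a log2 ratio of mutant to WT of -0.06 (-0.53 to 0.42). WT and mutant thus differed there by less than counting error. The largest rise was at 47246523 to 47247118, in an annotated exon outside coding sequence 122 kb from the start, where WT had 17 tags, het 22 and mutant 30 (log2 ratio 0.80, -0.10 to 1.75). The largest fall was in the first intron at 47350158 to 47350716, with 31, 43 and 23 tags (-0.45, -1.29 to 0.38). Its strongest WT region away from a TSS, with 58, 73 and 49 tags, lay beyond the gene's end in an intron of the neighbouring gene. Both extremes had intervals that include no change, and the gene's median log2 ratio was 0.12 over 16 regions.

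Sema6d (ENSMUSG00000027200.17, chromosome 2, 124089969 to 124667770, plus strand), the longest member at 577.8 kb, held the most, namely 66 WT, 38 het and 67 mutant peaks. It also had the largest shares of unpaired peaks among the genes with 10 or more, at 20 of 66 in WT (30.3%, 20.6 to 42.2%, against 22.8% of all WT peaks) and 21 of 67 in mutant (31.3%, 21.5 to 43.2%, against 30.7% of all mutant peaks). The numbers lost and gained were thus nearly equal, and none of the unpaired regions reached -log10 q 10. Of 42 shared regions 20 were higher and 22 lower in mutant, with a median log2 ratio of -0.02.
The first Sema6d TSS region had 45 tags in WT, 71 in het and 57 in mutant (0.32, -0.27 to 0.92), and the second, 520 kb downstream, had 58, 93 and 63 (0.10, -0.44 to 0.64). A further start carried a weak peak of 8 tags in WT and 14 in mutant, with none in het. The strongest region away from a start, at 124640886 to 124641645 in an intron, had 77, 123 and 76 tags and ranks of 98.6%, 98.2% and 98.0%. The intronic region printed above, at 124120332 to 124120682, had 33 tags in WT, 25 in het and 22 in mutant, a log2 ratio of -0.60 (-1.45 to 0.22). It was the sole member region at least 1.5 times lower in mutant, and 3.59% of all shared regions were as low. It ranked at 84.9% of the WT list, 57.4% of the het list and 67.9% of the mutant list. The largest rise among strong regions, at 124530475 to 124530994, had 30, 38 and 41 tags (0.43, -0.28 to 1.16).

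Sema6b and Sema6c are short genes with few peaks. Sema6b (ENSMUSG00000001227.12, chromosome 17, 56123085 to 56140343, minus strand) had 7 WT, 5 het and 9 mutant peaks. Its first TSS region had 26 tags in WT, 31 in het and 34 in mutant (0.37, -0.41 to 1.16), and 4 of its 5 shared regions were higher in mutant. An internal start at 56132778 to 56132983 had 16 tags in WT and 25 in het with no mutant peak, while about 1 kb away a peak of 17 tags was present in mutant alone.
Sema6c (ENSMUSG00000038777.19, chromosome 3, 95160457 to 95174024, plus strand) had 5 WT, 4 het and 5 mutant peaks. Its promoter had 75 tags in WT, 121 in het and 70 in mutant (-0.12, -0.61 to 0.37). A second start had 39, 42 and 35 tags (-0.17, -0.88 to 0.52). At neither start did WT and mutant differ beyond counting error. Another region within 1 kb of a start, at 95161326 to 95161446, had 21 tags in WT and no het or mutant peak. The strongest WT region away from a start, at 95174121 to 95174501, was also the largest rise, with 25, 36 and 33 tags (0.38, -0.41 to 1.19).

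**Figure D3:**
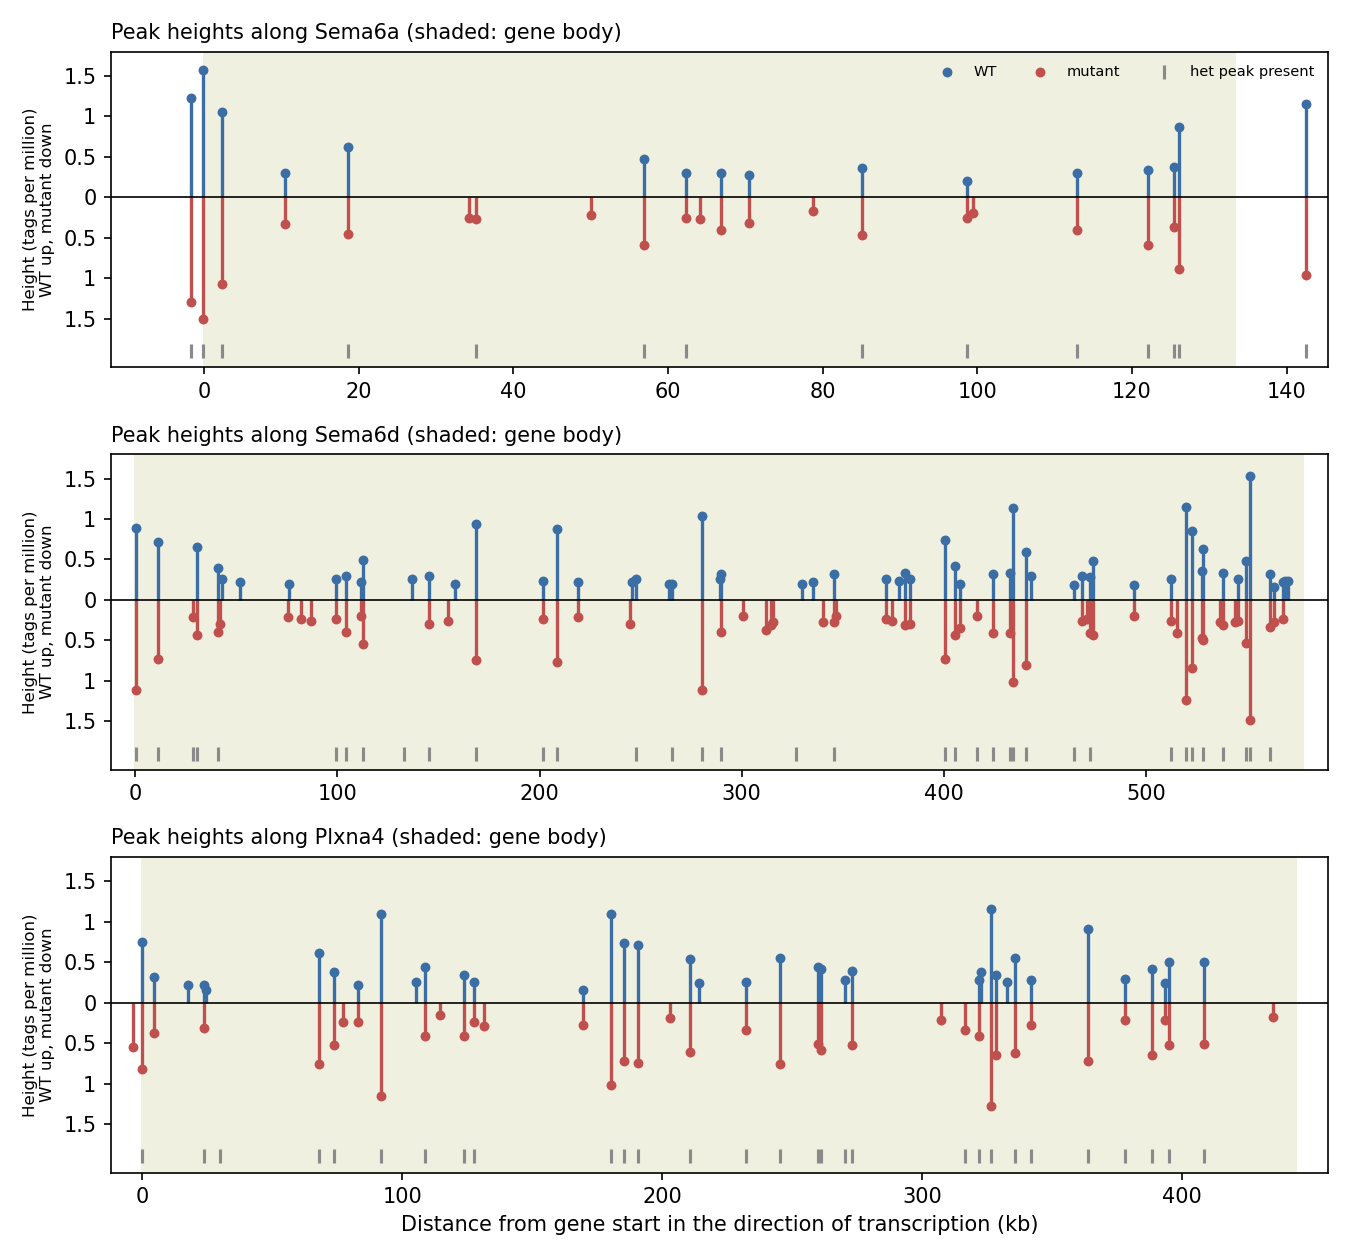
Height in tags per 1000000 (y axis, WT upward in blue, mutant downward in red) of every region along Sema6a, Sema6d and Plxna4 by distance from the gene start in kb (x axis), with the gene body shaded and grey ticks where het had a peak. The 3 genes hold 22, 80 and 47 regions, and the tall regions are present in both lists while most unpaired ones are short.

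Plxna2 (ENSMUSG00000026640.12, chromosome 1, 194618218 to 194816869, plus strand), which encodes a Sema6A receptor, had the highest median ratio of height, though not of fold enrichment, among the 9 genes, and its largest rise in height lay inside an intron. Of its 22 shared regions 17 were higher in mutant (77.3%, 56.6 to 89.9%) and 5 were at least 1.5 times higher, with a median log2 ratio of 0.33 (0.07 to 0.48). Of 1803 coding genes with 10 or more shared regions, 21 (1.16%) had a median as high or higher. This is a description of a gene singled out after its value was seen. Centred on all shared regions, whose median was 0.07, the Plxna2 median was 0.25 (-0.005 to 0.41). With fold enrichment in place of height the Plxna2 median was 0.13 (0.03 to 0.37), against 0.08 over all shared regions and below those of Sema6b (0.36), Plxna1 (0.20) and Plxnb2 (0.16), and 1 of the 5 regions stayed past 1.5 times.
The region at 194630492 to 194631058 in the first intron had 19 tags in WT, 31 in het and 47 in mutant, a log2 ratio of 1.29 (0.49 to 2.14). Mutant thus exceeded WT by 2.44-fold, and 0.122% of all shared regions had as large a rise. Its fold enrichment was 5.20 in WT and 8.15 in mutant, a smaller increase than that of height, and 4.69 in het, which is not comparable. Its rank was 57.3% in WT, 53.7% in het and 88.1% in mutant. It lay 10.9 kb from the nearest coding start of the gene. The neighbouring intronic region at 194629144 to 194629666 had 24, 42 and 39 tags (0.68, -0.09 to 1.48).
The other Plxna2 regions past 1.5 times were spread along the gene, at 102.9, 163 and 197.6 kb from its start. They had 13, 24 and 15 tags in WT and 21, 37 and 24 in mutant, and each interval included no change. The promoter did not share the rise, with 71 tags in WT, 121 in het and 76 in mutant (0.08, -0.41 to 0.57). Nor did the strongest region away from a start, 4.58 kb upstream of the gene, with 70, 101 and 70 tags (-0.02, -0.52 to 0.48). The largest fall among strong regions, in intron 12 at 194773938 to 194774233, had 21, 16 and 17 tags (-0.32, -1.34 to 0.67). Whole peaks were gained and lost at shares near those of all peaks, with 6 of 28 WT peaks (21.4%) and 9 of 31 mutant peaks (29.0%) unpaired.

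**Figure D4:**
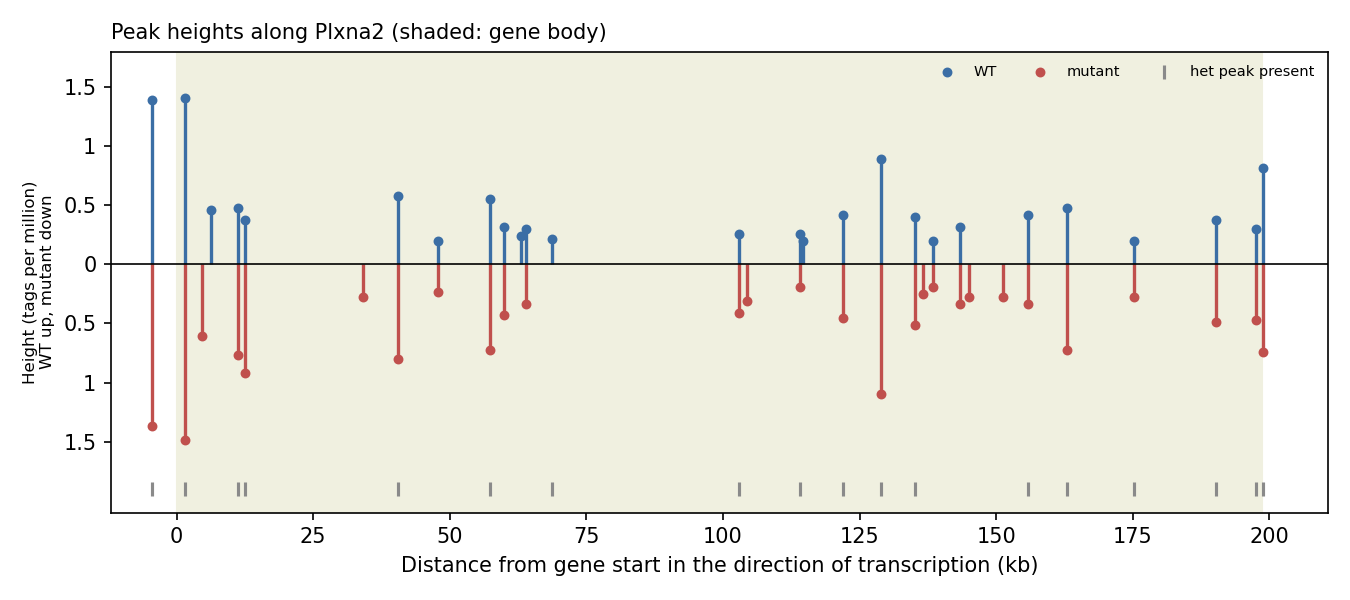
Height in tags per 1000000 (y axis, WT upward in blue, mutant downward in red) of the 32 regions of Plxna2 by distance from the gene start in kb (x axis), with the gene body shaded and grey ticks where het had a peak. The region 12.5 kb from the start rises from 0.377 in WT to 0.921 in mutant, while the tall promoter region changes from 1.41 to 1.49.

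Plxna4 (ENSMUSG00000029765.12, chromosome 6, 32144268 to 32588192, minus strand), encoding a receptor of Sema6A and, with neuropilin, of Sema3A, had 40 WT, 30 het and 41 mutant peaks. Of 31 shared regions 23 were higher in mutant (74.2%, 56.8 to 86.3%), with a median log2 ratio of 0.17 (0.06 to 0.37). A median as high was found for 16.3% of the 1803 genes. With fold enrichment in place of height the Plxna4 median was 0.13 (0.09 to 0.26). The median of height centred on all shared regions was 0.10 (-0.01 to 0.29).
The largest rise was the region at 32259490 to 32259738 in the fourth intron, with 17 tags in WT, no het peak and 33 tags in mutant (0.94, 0.05 to 1.88). It was the other member region whose interval lay above 1, and 1.12% of all shared regions rose as much. Both strong mutant peaks with no WT partner lay at this gene. The one at 32271525 to 32271732, also in the fourth intron, had 17 tags in het and 17 in mutant. The other, at 32591462 to 32591635 and 3.38 kb upstream of the start, had 28 tags in mutant and no peak in WT or het. Their -log10 q values of 10.1 and 10.5 were just past the threshold of 10, and the strongest unpaired mutant region just below it had 9.20, at Plxna1.
At the Plxna4 promoter, 38 tags were counted in WT, 52 in het and 42 in mutant (0.13, -0.54 to 0.80). The strongest region away from the start, in intron 3 at 32407623 to 32408370, had 55, 64 and 52 tags (-0.10, -0.67 to 0.47). The largest fall among strong regions, at 32224029 to 32224745, had 46, 48 and 37 tags (-0.33, -0.997 to 0.32). Antisense genes Plxna4os1, Plxna4os2 and Plxna4os3 lie within this window, and ATAC-seq does not assign a region to either strand.

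Plxna1 (ENSMUSG00000030084.11, chromosome 6, 89316314 to 89362620, minus strand), encoding a Sema6D receptor, had 12 WT, 10 het and 11 mutant peaks and the most evenly shared regions, with 7 of 8 in all 3 lists. Its TSS region had 30 tags in WT, 41 in het and 36 in mutant (0.24, -0.49 to 0.99). The strongest intronic region, at 89310217 to 89311118, lay past the gene's end in an intron of a neighbour and had 41, 38 and 35 tags (-0.25, -0.94 to 0.44). The 7 shared regions spanned log2 ratios of -0.25 to 0.24 and none passed 1.5 times.

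At the B plexins no shared region differed by 1.5 times. Plxnb2 (ENSMUSG00000036606.17, chromosome 15, 89155549 to 89180788, minus strand) had 10 WT, 6 het and 11 mutant peaks. Its promoter had 50 tags in WT, 81 in het and 62 in mutant (0.29, -0.27 to 0.86), and its rank was 71.6%, 76.1% and 83.4%. WT and mutant heights overlapped within counting error. An intronic region 2.28 kb from the start had 43, 50 and 42 tags (-0.05, -0.70 to 0.60).
Plxnb1 (ENSMUSG00000053646.13, chromosome 9, 109095389 to 109119917, plus strand), encoding a Sema4D receptor, had 6 WT, 4 het and 4 mutant peaks. Its TSS region had 56 tags in WT, 95 in het and 55 in mutant (-0.04, -0.61 to 0.52). The strongest region away from a start, 7.21 kb upstream of the gene in an intron of a neighbour, had 29, 42 and 27 tags (-0.12, -0.93 to 0.69). A mutant partner was missing for 2 of the 6 WT peaks (33.3%, 9.68 to 70.0%, against 22.8% of all WT peaks). Both had 13 tags or fewer.

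**Figure D5:**
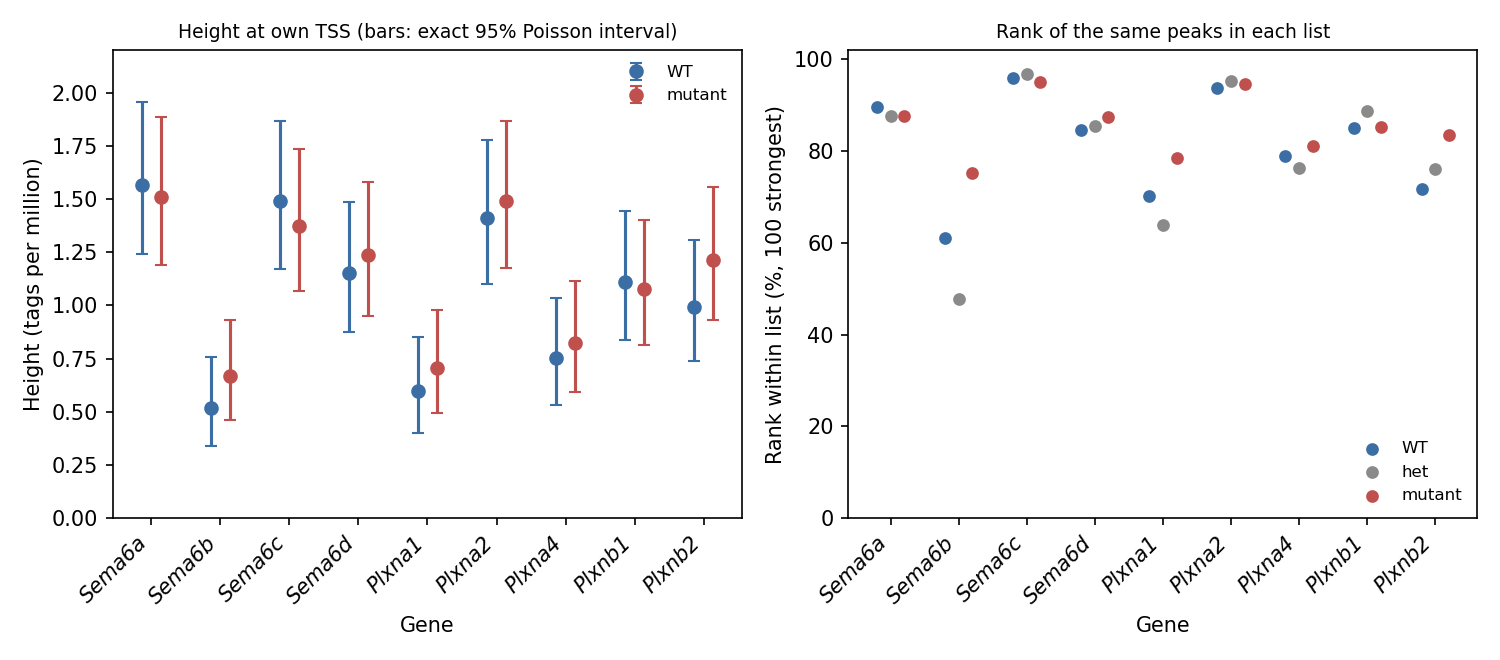
Left, height in tags per 1000000 (y axis) at the own-TSS region with the most WT tags for each gene (x axis), WT in blue and mutant in red, with exact 95% Poisson intervals as bars. Right, rank within its list (%, y axis) of the same peaks in WT, het (grey) and mutant, where WT and mutant intervals overlap at all 9 promoters on the left and the lowest rank is that of Sema6b in het (47.7%).

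Every one of the 9 genes kept an open promoter in all 3 genotypes, with ranks between 47.7% and 96.7%. At these promoters the log2 ratio of mutant to WT ran from -0.12 at Sema6c to 0.37 at Sema6b. The 107 shared intronic regions had a median of 0.11, against 0.08 over all shared intronic regions.

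The other genes of the pathway are given beside all shared regions, of which 3.61% were at least 1.5 times lower and 7.48% higher in mutant. The other plexins (Plxna3, Plxnb3, Plxnc1 and Plxnd1) had 0 of 20 shared regions at least 1.5 times lower in mutant and 1 of 20 higher, with a median log2 ratio of 0.01. Plxnc1, the one with the most WT peaks, held that region and had 15 WT and 15 mutant peaks. A peak within 1 kb of its TSS was present in WT and het but not in mutant. Whether a mutant peak lay just outside that distance was not checked. The 6 class 4 semaphorins, ligands of B plexins, had 0 of 38 lower and 2 of 38 higher (0.06). Sema4d, the ligand of plexin-B1, had the most WT peaks of them (14) and a median of -0.02 over 11 regions. The 27 intracellular partners, which include small GTPases, Mical and Crmp proteins, had 4 of 213 lower and 10 of 213 higher (0.05). Farp1, a guanine nucleotide exchange factor with 33 WT peaks, accounted for 4 of those 10, with a median of 0.17 over 23 regions. WT peaks without a mutant peak made up 14.3% in the other plexins, 4.55% in the class 4 semaphorins and 10.8% in the intracellular partners, against 22.8% of all WT peaks. The shares of mutant peaks lacking a WT partner were 28.1%, 17.3% and 27.4%, against 30.7% of all mutant peaks.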

How the data were processed

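ATAC-seq was measured in 8 libraries of P7 GNPs, and the authors deposited 1 MACS2 peak list per genotype. Per the file headers, the cutoff was a q-value of 0.05 and no control was used. The submitters' processing notes name Trim Galore 0.4.1, Bowtie 1.0.0, STAR 2.5.0b, Picard 1.139 and MACS2 2.1.0.20150731. Per the file headers, WT and mutant used STAR alignments, no shift and extensions of 90 and 88 bp, and het reads were shifted by -100 bp and extended to 200 bp, as the study's methods describe for all. Mutant tags were 76 bp and the others 107 bp.

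The authors deposited for each peak the pileup signal at the summit, the fold enrichment (a ratio over local background with a pseudocount of 1) and -log10 p-values and q-values, of which the p-values were not used here. Pileup is unscaled and was scaled here to 1000000 tags kept. Positions are counted from 1 in mm10, with 0 columns left without a group. No peak ran past a chromosome end of the genome used.

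Genes and starts came from the GENCODE mouse annotation of GRCm38. Peaks were called shared with an overlap of 1 bp or more. For merged regions the highest peak of each list was taken. Shares have Wilson 95% intervals, medians order-statistic intervals over regions and single ratios exact conditional binomial intervals. The intervals of medians reflect spread between regions taken as independent, and the others counting error alone. None covers error between libraries. Tags are not independent molecules, so the intervals of single ratios can be too narrow. With pooled lists no test was made. In each gene the regions named were those at its own TSS (within 1 kb), the strongest WT region elsewhere, every region of -log10 q 10 or more with no partner within 300 bp, and the largest fall and rise among shared regions of -log10 q 10 or more. In each pathway list the gene with the most WT peaks was named. Other regions past 1.5 times were named after their values were seen. The members and lists were chosen with earlier results of these data known. Alternatives were other overlap rules, thresholds, windows and scalings. Of the oligodendrocyte lineage markers, 4 were counted, a choice made after values were seen, and 1 is not reported here. For a count of 0, the limit given is 3 counts over the total. The scripts were checked on simulated lists. Python 3.11.15, pandas 2.3.3 and scipy 1.17.1 were used.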

Additional observations from a re-analysis of the deposited data

How the results depend on the processing

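No paired analysis was possible because each list was called on libraries pooled by genotype, and no library could be left out for the same reason. Of 53 alternatives to the main values of the 9 genes, 37 stayed within the main interval or within 1.5 times the main count. Requiring a 50% reciprocal overlap raised the unpaired share to 34.4% (WT against mutant), 37.9% (mutant against WT) and 49.0% (WT against het), where all peaks gave 35.9%, 43.8% and 49.9%. With -log10 q of 5 or more in both lists the shares were 12.3%, 31.8% and 22.8%, against 13.7%, 24.0% and 22.5% over all peaks. With that threshold on the query list alone they were 6.14%, 14.9% and 13.2%, against 5.78%, 11.2% and 15.8%. The mutant share was thus below that of all peaks at 1 bp of overlap and above it with either threshold. WT peaks without a het peak were 29.7% when a het peak within 300 bp counted and 21.2% with lists of equal length. Centred on all shared regions, the median log2 ratio of the 9 genes was 0.039. With fold enrichment in place of height, 6 regions were at least 1.5 times higher. With a fold of 2, 1 region was higher and 0 lower. Dividing height by extension length, an alternative chosen after seeing the data, left 0 regions at least 1.5 times lower, since the Sema6d region is close to that threshold. Of the per-gene values, 16 of 72 moved. The Plxnb1 median, over 4 regions, changed sign from -0.03 to 0.02 with fold enrichment in place of height, and no other per-gene median changed sign under the alternatives run.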
